A study of Mus musculus with 17 samples.

Results

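The genes of bile acid synthesis and conjugation were examined in mouse liver across diet and a single binge of ethanol. The 10 genes are the enzymes *Cyp7a1*, *Cyp8b1*, *Hsd3b7*, *Cyp7b1*, and *Cyp27a1*, the conjugation enzymes *Slc27a5* and *Baat*, and the regulators *Nr1h4*, *Nr0b2*, and *Fgfr4*. Every probe with one of these symbols in the table of log2 ratios was taken, which gave 14 of the 41174 non-control probes on the array. All 14 were well above background on all 17 arrays and were among the 34664 probes tested, and the 10 genes were among the 19358 tested of the 21452 genes that the table names.

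Each array held liver RNA of 1 male mouse, labeled with Cy5, and a reference RNA common to all arrays, labeled with Cy3, so each value is a log2 ratio of liver to reference. The reference is labeled both as assorted mouse RNA and as liver and serves here only as a common base. Chow mice (n = 4) were fed chow for 3 months and given maltose by gavage, 1B mice (n = 4) had the same chow and a single ethanol gavage (5 g/kg), HFD mice (n = 4) were fed a high-fat diet for 3 months and given maltose, and HFD+1B mice (n = 5) were fed the high-fat diet and given the ethanol gavage. All mice were gavaged, and livers were taken 9 hours later. Strain is given as C57BL/6N in the labels and as C57BL/6J in the methods. The RNA came from whole liver, so fewer cells of a type and less RNA per cell cannot be told apart.

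Bile acids are made from cholesterol in hepatocytes. In the classic pathway CYP7A1 adds the first hydroxyl group and sets the rate, HSD3B7 changes the steroid ring, and CYP8B1 adds the hydroxyl group that turns the product into cholic acid. In the alternative pathway CYP27A1 first oxidizes the side chain and CYP7B1 then hydroxylates the ring. SLC27A5 joins bile acids to coenzyme A, and BAAT transfers them to taurine or glycine. The pathway is under negative feedback. Bile acids bind the nuclear receptor FXR, encoded by *Nr1h4*. In the liver FXR induces SHP, encoded by *Nr0b2*, which represses *Cyp7a1* and *Cyp8b1*. In the ileum FXR induces the hormone FGF15, which acts on the hepatocyte through FGFR4 and lowers *Cyp7a1* as well.

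The probes of *Cyp7a1* and *Fgfr4* are shown because several probes of 1 gene could be set side by side, and those of *Cyp7b1*, *Nr0b2*, and *Nr1h4* because the main differences rest on a single probe each. Each probe was 60 bases long, and the first 30 bases are printed as the table gives them, in lower case without any part in capitals:
*Cyp7a1* probe A_51_P290981: atgcacttggatcctgaaatctacccagac
*Cyp7a1* probe A_52_P84027: ttgtttttaaaacaagttttatgactccct
*Cyp7b1* probe A_51_P461429: ttggttgagatcaatccagttggttttggg
*Nr0b2* probe A_51_P265338: agtatacttaagaagatcctgctagaggaa
*Nr1h4* probe A_51_P464669: tggcaattatacacctcccacggttgtaaa
*Fgfr4* probe A_51_P408100: ccctccattgcttgttccagcatcttggtg
*Fgfr4* probe A_52_P686383: cagctggtggaagctctggacaaggtcctg
*Fgfr4* probe A_52_P144363: gaagctgaccagctctgttccttgcagtac
In the RefSeq annotation of GRCm38.p6, *Cyp7a1* lies at chr4:6265612-6275632, *Cyp7b1* at chr3:18071944-18243890, *Nr0b2* at chr4:133553376-133556686, *Nr1h4* at chr10:89454234-89533645, and *Fgfr4* at chr13:55152818-55168759. The array was annotated on another build, and the positions of the probes within these genes were not used here. Of the 14 probes, 12 carried an accession found in that annotation. The 2 without one were the *Fgfr4* probes A_52_P686383 and A_52_P144363, whose table entries name a partial coding sequence of a splice variant of *Fgfr4*, whereas A_51_P408100 was designed on the RefSeq transcript of *Fgfr4*. Values are those of a gene's probe with the highest mean Cy5 signal unless another probe is named.

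Several facts of the whole series touch these genes. Each of the 5 slides carried arrays of at least 3 groups, and 73.9% to 86.0% of probes were well above background per array. HFD mouse 3 stood apart from the other HFD mice in *Lcn2*, an acute phase gene, with a log2 ratio of 0.71 against -3.25 to -2.99. The 3 probes for ribosomal RNA were below chow in all 4 HFD mice, by -4.08 to -2.41 on the log2 scale as a mean per mouse, against -1.42 to 0.64 in HFD+1B. The 9 of 12 hepatocyte markers that were on the array had a mean difference from chow of -0.58 to -0.27 in the HFD mice, 0.15 to 0.40 in 1B mice, and 0.12 to 0.56 in HFD+1B, and all 9 were well above background on every array. Their median differences from chow were -0.17 in HFD, where *Apob* and *Tat* were called lower, and 0.07 in HFD+1B, where *Fgb*, *Tat*, and *Ahsg* were called higher, and the other markers were not called. The 12 stellate cell markers differed from chow by 0.56 to 0.70 in HFD mice and by 0.32 to 1.07 in HFD+1B. The 9 of 11 macrophage markers tested had means of 0.30 to 0.50 for HFD and 0.27 to 0.74 for HFD+1B. For the 12 neutrophil markers these were -0.27 to 0.26 and 0.01 to 0.34, and for the 9 cholangiocyte markers -0.22 to 0.07 and 0.08 to 0.66. These means cover markers of both directions: 3 neutrophil markers were called higher and 1 lower in HFD+1B against chow. For stellate cells 8 were called higher there, for macrophages 1, and for cholangiocytes 1, with none lower, where 16.3% of all genes were called. The part of RNA quality and of cell composition in the differences below was not tested.

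In HFD+1B mice 6 of the 10 genes were lower than in chow mice and none was higher at an adjusted p of 0.05 or less (limma, Benjamini-Hochberg over all probes), where 16.3% of all genes were called and 7.41% were called lower. These were *Cyp7a1*, *Cyp7b1*, *Cyp27a1*, *Slc27a5*, *Nr0b2*, and *Nr1h4*, and 3 of them, *Cyp7a1*, *Cyp7b1*, and *Nr0b2*, were at least 2-fold lower. The median log2 difference of the 10 genes was -0.68, against 0.0006 over all genes. In 1B mice only *Nr0b2* and *Hsd3b7* were called, both lower (4.13% of all genes called, 2.04% lower), with a median of -0.02 for the 10 genes. In HFD mice only *Cyp7b1* and *Cyp27a1* were called, both lower (11.0% of all genes called, 6.48% lower), with a median of -0.14. These 3 comparisons share the chow mice. Between HFD+1B and HFD, which differ in the gavage, 6 genes were lower and none higher (19.4% of all genes called, 8.39% lower): *Cyp7a1*, *Cyp7b1*, *Hsd3b7*, *Slc27a5*, *Nr0b2*, and *Nr1h4*. Between HFD+1B and 1B, which differ in the diet, 5 genes were lower (*Cyp7a1*, *Cyp7b1*, *Cyp8b1*, *Cyp27a1*, and *Nr1h4*) and *Fgfr4* was higher by its brightest probe, 6 in all where 11.4% of all genes were called and 5.16% were called lower. Between HFD and 1B, 5 genes were called where 14.3% of all genes were, with *Cyp7b1*, *Cyp8b1*, and *Cyp27a1* lower and *Hsd3b7* and *Nr0b2* higher in HFD. A rule of a 2-fold difference with an unadjusted p of 0.05 or less called 1 gene of the 10 for 1B (1.06% of all genes), 1 for HFD (1.94%), and 3 for HFD+1B (3.03%), each set against chow. The same rule called 3 genes when HFD+1B was set against HFD (2.11%), 3 when it was set against 1B (1.91%), and 2 when HFD was set against 1B (2.36%).

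**Figure D1:**
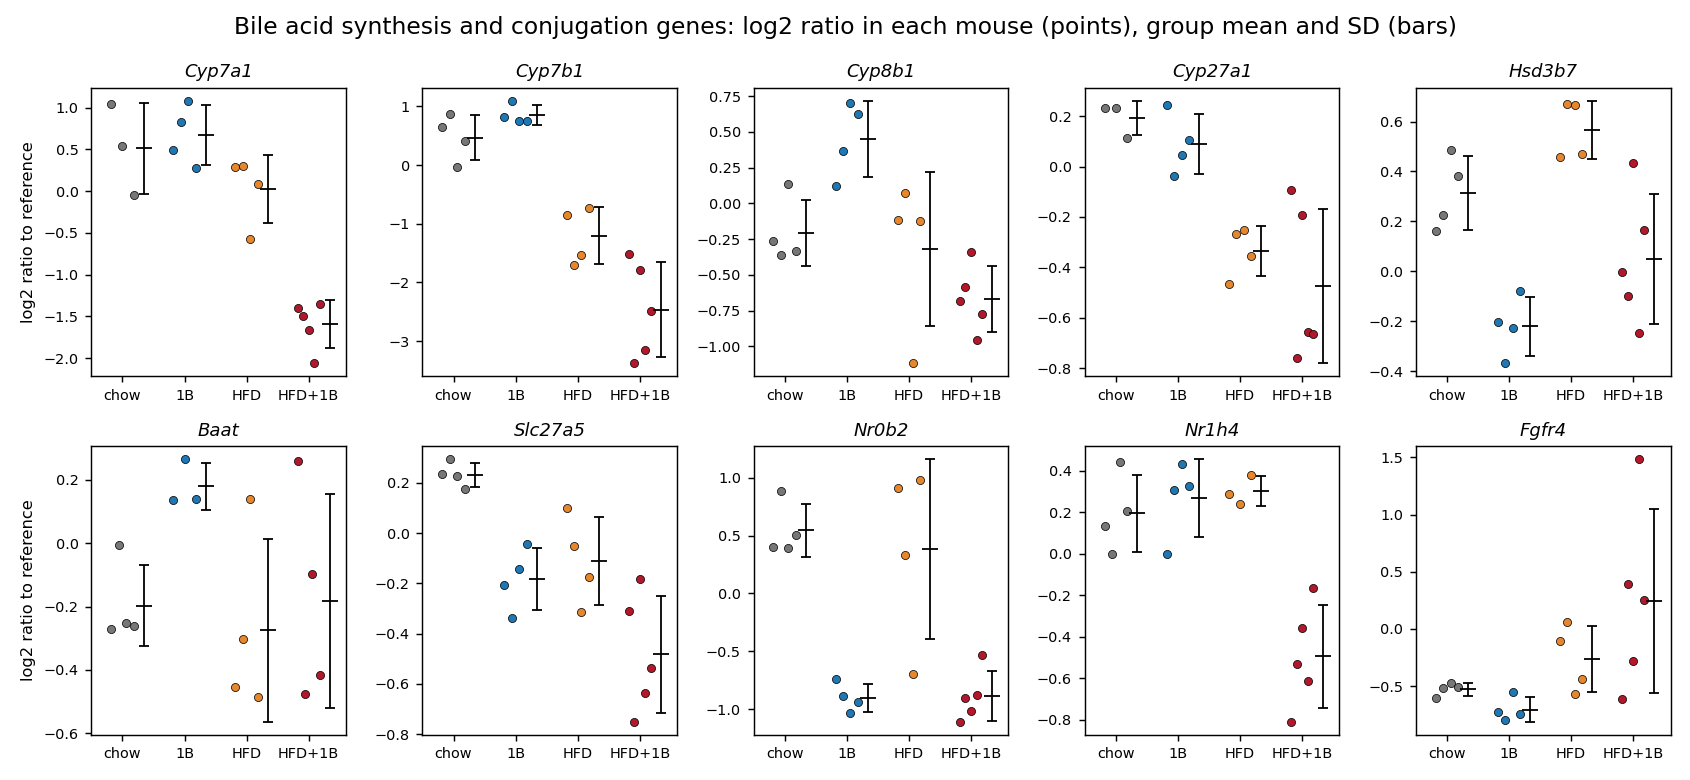
Log2 ratio of liver to reference of the 10 genes, by their brightest probe, in each mouse of the 4 groups, with the group mean and SD as bars and a vertical axis of its own for each gene. Cyp7a1 and Nr1h4 were lower in all 5 HFD+1B mice than in every other mouse with a value. Chow mouse 1 has no value for Cyp7a1 and HFD mouse 3 none for Nr1h4. Cyp7b1 was lower in both HFD groups, and Nr0b2 was lower in both ethanol groups and in 1 HFD mouse.

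**Figure D2:**
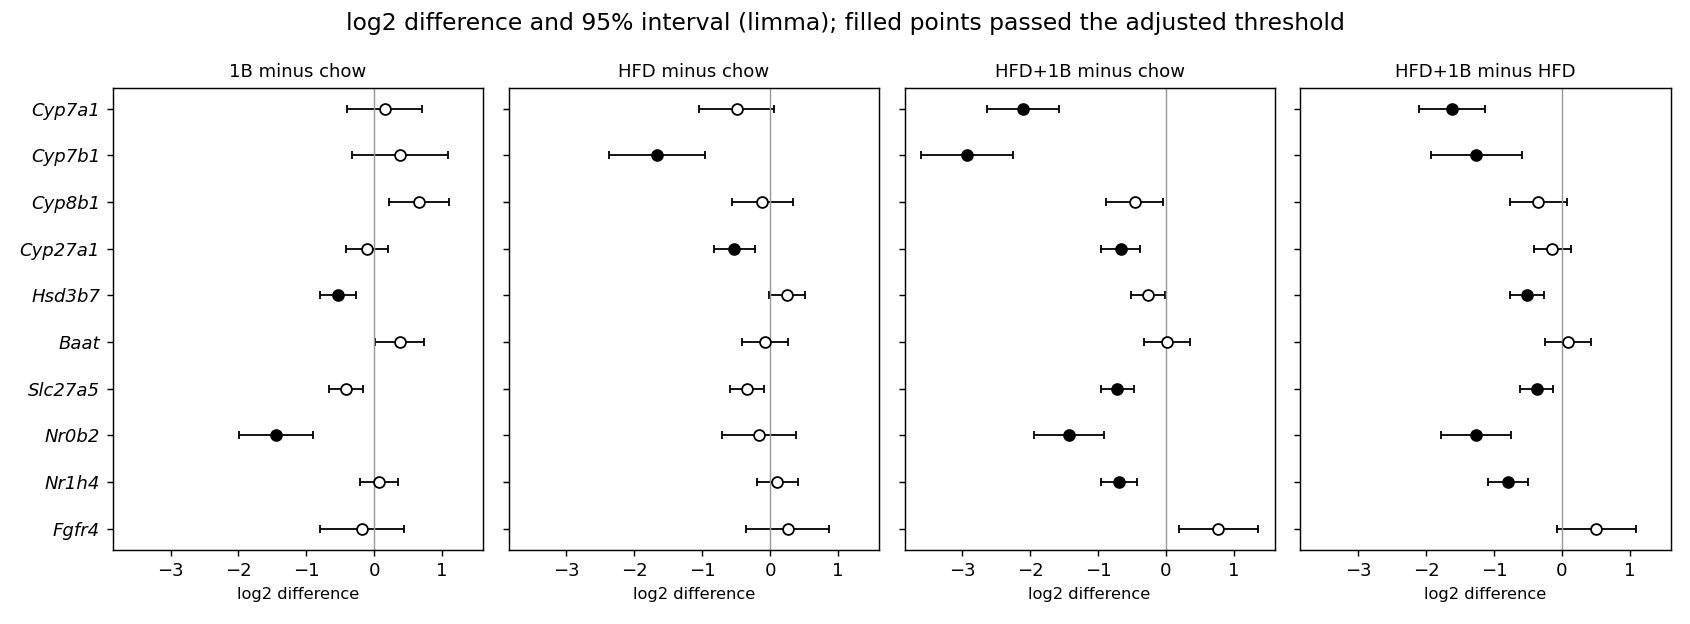
Log2 differences of the 10 genes in 4 comparisons, with 95% intervals from limma, where filled points had an adjusted p of 0.05 or less. In HFD+1B minus chow 6 points are filled, all below 0, against 2 in each of the comparisons of a single exposure.

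*Cyp7a1*, the gene of the rate-limiting enzyme of the classic pathway, was low in HFD+1B and not called against chow in either exposure alone. Its log2 ratio was 1.05, 0.54, and -0.04 in chow mice 2, 3, and 4, where the spot of mouse 1 was marked as an outlier and left out, and 0.50, 0.83, 1.09, and 0.28 in 1B mice 1 to 4. It was 0.29, 0.30, -0.57, and 0.09 in HFD mice 1 to 4 and -1.40, -1.50, -1.66, -2.06, and -1.35 in HFD+1B mice 1 to 5. The 5 HFD+1B mice were below all 11 other mice with a value. Groups did not overlap for 15.6% of all genes between HFD+1B and chow, 15.3% between HFD+1B and HFD, and 11.4% between HFD+1B and 1B. The mean was 4.32-fold lower in HFD+1B than in chow, a log2 difference of -2.11 ± 0.25 (SE, adjusted p = 2.36e-05), 3.07-fold lower than in HFD (-1.62 ± 0.23, adjusted p = 0.000263), and 4.81-fold lower than in 1B (-2.27 ± 0.23, adjusted p = 1.25e-05). The difference of 1B from chow was 0.16, with a 95% interval of -0.40 to 0.71, and that of HFD from chow was -0.49, with an interval of -1.04 to 0.06. Both intervals include 0 and end short of the mean difference of HFD+1B from chow.

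The second probe of *Cyp7a1*, A_52_P84027, had a value in all 17 mice. It read 1.11, 1.24, 0.82, and -0.15 in chow mice, 0.68, 0.77, 0.82, and 0.73 in 1B mice, 1.14, 0.43, 0.13, and 0.91 in HFD mice, and -1.78, -2.04, -1.62, -2.06, and -1.60 in HFD+1B. Again no HFD+1B mouse overlapped with any other mouse, and chow mouse 4 was the lowest of the remaining 12 by this probe. The log2 difference of HFD+1B from chow was -2.57 ± 0.23 (adjusted p = 1.52e-06) and from HFD -2.47 ± 0.23 (adjusted p = 7.01e-06), while HFD and chow differed by -0.10 (interval -0.62 to 0.42). The 2 probes had the same sign and the same calls in the comparisons with HFD+1B.

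*Cyp8b1*, which sets the share of cholic acid, had its highest mean in 1B. Its log2 ratio was -0.27, -0.36, 0.14, and -0.34 in chow mice, 0.12, 0.36, 0.70, and 0.63 in 1B mice, -0.12, 0.07, -1.12, and -0.12 in HFD mice, and -0.68, -0.59, -0.34, -0.96, and -0.77 in HFD+1B. The 1B mice lay above all HFD and HFD+1B mice, and both 1B and HFD+1B overlapped with chow by 1 mouse. Groups did not overlap for 11.4% of all genes between HFD+1B and 1B, and the share between HFD and 1B is not given here. HFD+1B was 2.18-fold lower than 1B (log2 difference -1.12 ± 0.20, adjusted p = 0.00169), and the difference of HFD from 1B was called as well (-0.77 ± 0.21, adjusted p = 0.0233). Neither 1B (0.66 ± 0.21, adjusted p = 0.111) nor HFD+1B (-0.46 ± 0.20, adjusted p = 0.148) passed the threshold against chow. Without HFD mouse 3, which enters the shared estimate of the spread, both did, with adjusted p = 0.0157 and 0.0343, and so did HFD+1B against HFD, with a difference of -0.61 (adjusted p = 0.0149), while HFD against 1B no longer did (-0.51, adjusted p = 0.0614). The call of HFD against 1B was also lost without 1B mouse 3 (adjusted p = 0.0774) or 4 (0.0543) and with the slide as a block (0.0684). It was lost as well with only the 2 groups fitted (0.0710), with Cy5 alone (0.0911), and by the Tukey test (0.257). The Tukey p-values were here adjusted by Benjamini-Hochberg over all probes. The methods name that test for data of multiple groups and GeneSpring for the arrays.

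*Hsd3b7*, which encodes an enzyme of both pathways, was lower after ethanol on either diet. The values were 0.16, 0.22, 0.49, and 0.38 in chow mice and -0.21, -0.37, -0.23, and -0.08 in 1B. They were 0.46, 0.67, 0.67, and 0.47 in HFD mice and -0.004, -0.10, 0.43, -0.25, and 0.16 in HFD+1B. The ethanol mice were below the maltose mice of the same diet without overlap. This lack of overlap, in either direction, held for 12.0% of all genes on chow and 15.3% on HFD. The differences were -0.53 ± 0.13 on chow (adjusted p = 0.0216), a call that was lost without chow mouse 3 or 4 or 1B mouse 1, 2, or 3, and -0.52 ± 0.12 on HFD (adjusted p = 0.00649). With arrays centered on the median in place of loess, the difference on HFD was -0.26 (adjusted p = 0.193) while the median of all genes in that comparison moved to 0.14. The call on chow was also lost with the authors' table (adjusted p = 0.0621), with Cy5 alone (0.584), and by the Tukey test (0.210). That on HFD was lost with Cy5 alone (0.0708) and by the Tukey test (0.0667). Against chow, HFD+1B mice differed by -0.26 ± 0.12 (adjusted p = 0.165).

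*Cyp7b1*, the hydroxylase of the alternative pathway, had the largest difference from chow of the 10 genes in HFD and in HFD+1B by the brightest probes. It read 0.64, 0.86, -0.04, and 0.41 in chow mice and 0.82, 1.099, 0.75, and 0.75 in 1B. It read -0.85, -1.70, -1.53, and -0.73 in HFD mice and -1.52, -3.37, -1.79, -3.15, and -2.48 in HFD+1B. HFD mice were below all chow mice, and HFD+1B mice were below all chow and 1B mice. Groups were apart, in either direction, for 19.3% of all genes between HFD and chow. The share was 15.6% between HFD+1B and chow and 11.4% between HFD+1B and 1B. The HFD and HFD+1B mice overlapped, with HFD+1B mouse 1 above HFD mice 2 and 3. HFD was 3.19-fold lower than chow (-1.67 ± 0.34, adjusted p = 0.00494) and HFD+1B 7.63-fold lower (-2.93 ± 0.32, adjusted p = 8.29e-06). HFD+1B was also lower than HFD, by 2.40-fold (-1.26 ± 0.32, adjusted p = 0.0111), whereas 1B differed from chow by 0.38 with an interval of -0.32 to 1.09. The difference of HFD+1B from HFD came with a wide spread within HFD+1B (SD 0.81) and had an adjusted p of 0.0513 when only these 2 groups were fitted. By the Tukey test, adjusted over all probes, the adjusted p was 0.112 for HFD against chow and 0.161 for HFD+1B against HFD.

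*Cyp27a1*, the sterol side chain hydroxylase of mitochondria, was lower with HFD and showed no called difference with ethanol. Its log2 ratio was 0.23, 0.23, and 0.11 in chow mice 2 to 4, 0.24, -0.04, 0.05, and 0.11 in 1B mice, -0.47, -0.27, -0.25, and -0.35 in HFD mice, and -0.09, -0.76, -0.19, -0.66, and -0.66 in HFD+1B. HFD mice were below all chow mice with a value, and HFD+1B mice were below all chow and 1B mice with a value. Groups were apart, in either direction, for 19.3% of all genes between HFD and chow. The share was 15.6% between HFD+1B and chow and 11.4% between HFD+1B and 1B. HFD differed from chow by -0.53 ± 0.14 (adjusted p = 0.0289) and HFD+1B by -0.67 ± 0.14 (adjusted p = 0.00302). With Cy5 alone neither difference passed, at -0.44 (adjusted p = 0.239) and -0.49 (adjusted p = 0.156). HFD+1B and HFD differed by -0.14, with an interval of -0.41 to 0.13. The difference of HFD from 1B (-0.42 ± 0.13, adjusted p = 0.0469) was called in only 14 of 32 alternatives, and among others it was lost with the authors' table, with no background subtraction, and without any 1 of the 1B or HFD mice. The call in HFD was lost without chow mouse 2, 3, or 4 or HFD mouse 1, 3, or 4, with adjusted p from 0.0509 to 0.0830.

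The conjugation enzymes differed from one another. *Slc27a5*, the bile acid coenzyme A ligase, read 0.23, 0.29, 0.23, and 0.18 in chow mice, -0.21, -0.34, -0.14, and -0.04 in 1B mice, 0.10, -0.05, -0.32, and -0.18 in HFD mice, and -0.31, -0.75, -0.18, -0.64, and -0.54 in HFD+1B. Each of the 3 exposed groups lay below chow without overlap, as did 12.0% of all genes in either direction for 1B, 19.3% for HFD, and 15.6% for HFD+1B. The test called only HFD+1B, at -0.72 ± 0.11 (adjusted p = 0.000279). In 1B the difference was -0.41 ± 0.12 (adjusted p = 0.0656) and in HFD -0.34 ± 0.12 (adjusted p = 0.0767). HFD+1B was also lower than HFD, by -0.37 ± 0.11 (adjusted p = 0.0299), but this difference was -0.12 (adjusted p = 0.564) with arrays centered on the median, and the call was lost without HFD mouse 1, 2, or 4 or HFD+1B mouse 2 or 4.

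*Baat*, the amino acid transferase of the last step, was not called against chow in any group by either of its 2 probes. By the brightest probe the chow mice read -0.27, -0.01, -0.25, and -0.26 and the HFD+1B mice with a value 0.26, -0.47, -0.10, and -0.42. That group spanned the chow values on both sides, and the difference of 0.01 had an interval of -0.32 to 0.35. The 3 1B mice with a value, at 0.14, 0.26, and 0.14, were above all chow mice, with a difference of 0.38 ± 0.17 that did not pass (adjusted p = 0.338). Between 1B and chow, 12.0% of all genes had no overlap in either direction. The other probe, A_52_P43150, gave -0.09 for HFD+1B against chow (interval -0.40 to 0.22). It was lower in HFD than in 1B by -0.60 ± 0.16 (adjusted p = 0.0230), a call that the brightest probe did not share (-0.45 ± 0.17, adjusted p = 0.0961).

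Among the regulators, *Nr0b2*, the gene of the repressor SHP, was lower after ethanol on both diets. It read 0.40, 0.88, 0.39, and 0.51 in chow mice and -0.74, -0.89, -1.03, and -0.94 in 1B. It read 0.91, 0.33, -0.70, and 0.98 in HFD mice and -1.11, -0.90, -1.02, -0.88, and -0.53 in HFD+1B. All 9 ethanol mice were below all 4 chow mice, and HFD mouse 3 was the only mouse given maltose within the range of the ethanol mice. Of all genes, 12.0% had no overlap between 1B and chow and 15.6% had none between HFD+1B and chow. 1B was 2.72-fold lower than chow (-1.44 ± 0.26, adjusted p = 0.003) and HFD+1B 2.41-fold lower than HFD (-1.27 ± 0.24, adjusted p = 0.00194). Without HFD mouse 3 the latter was -1.63 (adjusted p = 1.26e-05). By the Tukey test the difference of 1B from chow did not pass (adjusted p = 0.0995). HFD+1B and 1B differed by 0.01 with an interval of -0.50 to 0.53. Low *Nr0b2* went with low *Cyp7a1* in HFD+1B, but not in 1B, where the mean of *Cyp7a1* was 0.67 against 0.52 in chow.

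*Nr1h4*, the gene of the bile acid receptor FXR, was low only in HFD+1B among the mice with a value. It read 0.13, 0.0009, 0.44, and 0.21 in chow mice, -0.001, 0.31, 0.43, and 0.33 in 1B mice, 0.29, 0.24, and 0.38 in HFD mice 1, 2, and 4, and -0.81, -0.53, -0.36, -0.61, and -0.16 in HFD+1B. The HFD+1B mice were below all other mice with a value. Of all genes, 15.6% had no overlap between HFD+1B and chow, 15.3% between HFD+1B and HFD, and 11.4% between HFD+1B and 1B. The spot of HFD mouse 3, the mouse that stood apart in *Lcn2*, was marked as an outlier and left out. HFD+1B differed by -0.69 ± 0.13 from chow (adjusted p = 0.00124), by -0.80 ± 0.14 from HFD (adjusted p = 0.00112), and by -0.76 ± 0.13 from 1B (adjusted p = 0.00109), while the differences of 1B (0.07, interval -0.21 to 0.35) and of HFD (0.11, interval -0.20 to 0.41) from chow did not pass. With the Cy5 channel alone none of these 3 differences passed, at -0.76 from chow (adjusted p = 0.0562), -0.77 from HFD (0.0727), and -0.60 from 1B (0.197).

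*Fgfr4*, the receptor of FGF15, had no single direction, because its 3 probes disagreed. By the probe of the RefSeq transcript, A_51_P408100, the values were 0.01, 0.13, 0.21, and 0.20 in chow mice, -0.27, -0.24, -0.05, and -0.19 in 1B mice, -0.29, 0.05, 0.21, and 0.08 in HFD mice, and -0.40, -0.43, -0.50, -0.70, and -0.55 in HFD+1B. All HFD+1B mice were below all others, and HFD+1B differed from chow by -0.65 ± 0.10 (adjusted p = 0.000197). By brightest probes, 15.6% of all genes had no overlap between HFD+1B and chow, 15.3% between HFD+1B and HFD, and 11.4% between HFD+1B and 1B. By the brightest probe, A_52_P686383, the HFD+1B mice read -0.62, 0.40, -0.28, 1.48, and 0.25 against -0.61 to -0.47 in chow mice, a difference of 0.77 ± 0.28 in the opposite direction (adjusted p = 0.0709). Its difference of HFD+1B from 1B was called at 0.95 ± 0.28 (adjusted p = 0.0355), a call that was lost without any 1 of the 4 1B mice or without HFD+1B mouse 2 or 5, where the RefSeq probe was called at -0.33 ± 0.10 (adjusted p = 0.0426). The last probe, A_52_P144363, was low only in HFD, at -0.85, -0.57, -0.54, and -0.81 against 0.19 to 0.34 in chow (-0.97 ± 0.13, adjusted p = 0.000318), with HFD+1B differing from chow by -0.17 (interval -0.43 to 0.09). Ribosomal RNA probes were also lowest in the same 4 HFD mice, at -4.08 to -2.41 from chow, and a link between the 2 was not tested. HFD differed from chow by 0.26 for A_52_P686383 and by -0.13 for A_51_P408100, neither called.

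**Figure D3:**
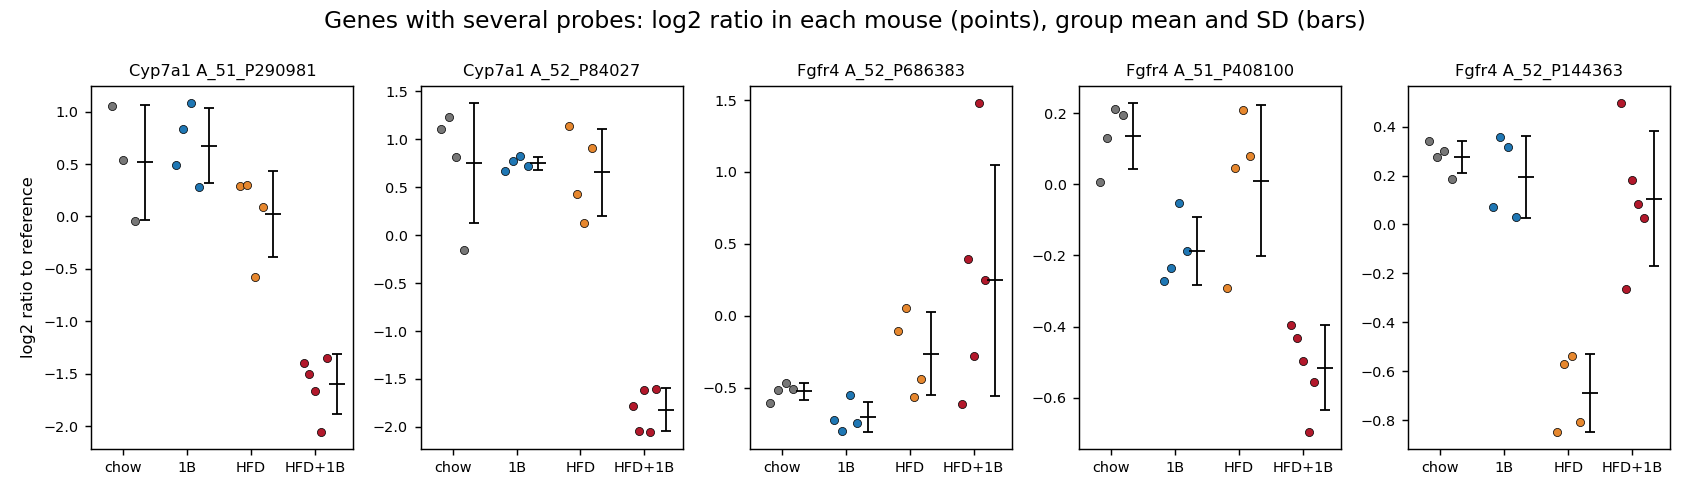
Log2 ratio in each mouse for the 2 probes of Cyp7a1 and the 3 probes of Fgfr4, with the group mean and SD as bars and a vertical axis of its own for each probe. Both Cyp7a1 probes were lowest in the 5 HFD+1B mice, whereas the Fgfr4 probes differed: the first was highest in 3 HFD+1B mice, the second was lowest in HFD+1B, and the third was lowest in HFD.

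Whether ethanol changed a gene by another amount on HFD than on chow was tested as an interaction, the difference of HFD+1B and HFD minus that of 1B and chow. It was called for *Cyp7a1* and *Nr1h4*, both negative, 2 of 10 genes where 4.39% of all genes were called and 1.72% were negative. The 2-fold rule with an unadjusted p called 3 of the 10 (*Cyp7a1*, *Cyp7b1*, and *Cyp8b1*), against 2.25% of all genes. For *Cyp7a1* it was -1.77 ± 0.35 (adjusted p = 0.0126), and the second probe gave -2.47 ± 0.34 (adjusted p = 0.00187). For *Nr1h4* it was -0.87 ± 0.19 (adjusted p = 0.0211), which was -0.48 (adjusted p = 0.239) with arrays centered on the median, -0.60 (0.474) with Cy5 alone, and did not pass when HFD mouse 4 was left out (adjusted p = 0.0552). *Cyp7b1* (-1.64 ± 0.46, adjusted p = 0.0533) and *Cyp8b1* (-1.01 ± 0.29, adjusted p = 0.0594) had values of the same sign that did not pass. *Cyp7b1* passed in 7 alternatives, with adjusted p from 0.0240 to 0.0476, among them the slide as a block and leaving out HFD mouse 2 or HFD+1B mouse 1 or 3. *Cyp8b1* passed in 4, among them leaving out HFD mouse 3 (-1.27, adjusted p = 0.00691) or HFD+1B mouse 3 (adjusted p = 0.0487). *Nr0b2* gave 0.18 with an interval of -0.57 to 0.92, and *Hsd3b7* 0.02 with an interval of -0.35 to 0.38. One probe of *Fgfr4*, A_52_P144363, had a positive interaction of 0.88 ± 0.18 (adjusted p = 0.0149), which the other 2 probes did not share.

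**Figure D4:**
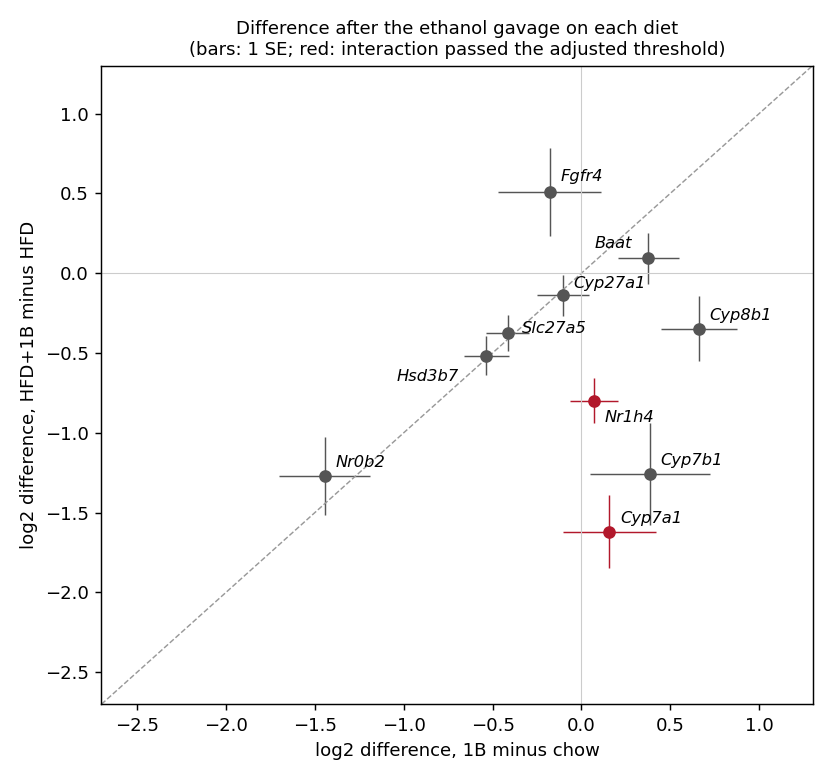
Log2 difference of HFD+1B minus HFD against that of 1B minus chow for the 10 genes by their brightest probe, with bars of 1 SE, and in red the genes whose interaction had an adjusted p of 0.05 or less. Nr0b2, Hsd3b7, Slc27a5, and Cyp27a1 lie near the dashed line of equal differences, and Cyp7a1 and Nr1h4 lie below it at -1.62 and -0.80 on the vertical axis. Cyp7b1 and Cyp8b1 also lie below it, with interactions of -1.64 and -1.01 that did not pass, and Fgfr4 lies above it (0.69, not passed).

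Slides held mice of several groups, so differences could also be read within a slide. *Cyp7a1* was lower in HFD+1B than in chow in all 3 slides with both values, by -2.40 to -1.62, and lower than in HFD in all 4, by -2.15 to -1.09. *Cyp7b1* was lower in HFD+1B than in chow in 4 of 4 slides, by -3.35 to -2.16, and lower in HFD than in chow in 3 of 3, by -2.56 to -1.50. *Nr0b2* was lower in 1B than in chow in 3 of 3 slides, by -1.77 to -1.14, and *Nr1h4* lower in HFD+1B than in chow in 4 of 4, by -0.98 to -0.16. *Slc27a5* was lower in HFD+1B than in chow in 4 of 4 slides, by -0.98 to -0.36, and *Cyp27a1* in 3 of 3, by -0.99 to -0.31. For all of these comparisons the groups did not overlap, so the sign within a slide was fixed in advance. Where HFD+1B was called against HFD with overlap, *Cyp7b1* was lower in 4 of 4 slides (-2.42 to -0.25). *Nr0b2* was lower in 4 of 4 (-2.02 to -0.32) and *Slc27a5* in 3 of 4, with 0.13 on slide 4. *Cyp8b1*, not called in that comparison, was lower in 3 of 4, with 0.78 on slide 4. With the slide as a block the 6 genes called in HFD+1B against chow were the same 6, whereas 3 calls were lost, those of *Hsd3b7* in 1B against chow (adjusted p = 0.0532), *Slc27a5* in HFD+1B against HFD (0.0540), and *Cyp8b1* in HFD against 1B (0.0684), and the interaction of *Cyp7b1* was gained (0.0476).

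The spread between mice differed by gene and group. *Cyp7b1* had an SD of 0.81 in HFD+1B against 0.39 in chow mice, 0.17 in 1B mice, and 0.48 in HFD mice. By its brightest probe *Cyp7a1* had an SD of 0.29 in HFD+1B against 0.36 to 0.55 elsewhere. By the other probe its SD was 0.22 in HFD+1B against 0.63 in chow mice, 0.06 in 1B mice, and 0.46 in HFD mice. The SD of *Cyp27a1* was 0.31 in HFD+1B against 0.07 to 0.12 elsewhere, and that of the brightest *Fgfr4* probe was 0.80 against 0.06 to 0.29. The mean of the stellate cell markers also varied most in HFD+1B, from 0.32 to 1.07 over its 5 mice, and its part in this spread was not tested. *Nr0b2* and *Cyp8b1* had their largest SD in HFD, 0.78 and 0.54, where mouse 3 was the lowest.

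For the 4 genes that differed at least 2-fold in a called comparison of 2 groups, the genes with the nearest profile were found by the root mean square difference of deviations from the chow mean over the arrays, among 17985 or more genes without missing values. *Cyp7a1* was nearest to *Cyp2d13* (0.45 over 16 arrays), *Selenbp1* (0.48), and *Srd5a1* (0.52), against 1.25 for the root mean square deviation of *Cyp7a1* itself. *Cyp7b1* was nearest to *C8b* (0.31 over 17 arrays), which encodes a complement component and was lower in HFD+1B than in chow by -2.75, and then to *Mup8* (0.47) and *Cyp1a2* (0.54), against 1.86 for its own deviation. *Nr0b2* was nearest to *Hsd3b3* (0.33), *Dsg1c* (0.33), and *Ces1d* (0.37), against 1.11 for its own. *Cyp8b1* was nearest to *Aspdh* (0.265), *Aspscr1* (0.32), and *Rbm4b* (0.33), against only 0.50 for its own deviation.

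The rest of the pathway was measured with lists of other genes. Of 17 other enzymes of bile acid synthesis, 4 were lower and none higher in HFD+1B than in chow, with a median log2 difference of -0.04, where 7.41% of all genes were called lower. The largest difference among the 4 was that of *Akr1c14*, a 3-alpha-hydroxysteroid dehydrogenase, at -1.50 ± 0.11 (adjusted p = 2.05e-07), with means of 0.58 ± 0.20 in chow mice (SD, n = 4), -0.39 ± 0.08 in 1B mice, 0.12 ± 0.20 in HFD mice, and -0.92 ± 0.13 in HFD+1B (SD, n = 5). *Slc27a2*, the acyl coenzyme A synthetase of very long chains, differed by -0.75 ± 0.17 (adjusted p = 0.00669), and *Akr1c6* by -0.59 ± 0.12 (adjusted p = 0.00326). In 1B 2 of the 17 were lower and none higher (2.04% of all genes lower), and in HFD 2 were lower and 1 higher (6.48% of all genes lower, 11.0% called).

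Of 15 transporters of bile acids and bile lipids, 5 were lower and 1 higher in HFD+1B than in chow, where 16.3% of all genes were called and 7.41% were lower, with a median of -0.45. *Slco1a1*, an uptake carrier of organic anions, averaged 0.86 ± 0.43 in chow mice and -2.36 ± 1.12 in HFD+1B (SD), a difference of -3.21 ± 0.46 (SE, adjusted p = 0.000124), and it was also lower in HFD (-2.38 ± 0.49, adjusted p = 0.00558). *Slc10a2*, the sodium-dependent transporter known from ileum and bile duct cells, was the one that was higher, with means of -1.64 ± 0.08 in chow mice, -1.15 ± 0.29 in 1B mice, -1.62 ± 0.26 in HFD mice, and 0.30 ± 0.52 in HFD+1B (difference 1.94 ± 0.21, adjusted p = 6.44e-06). *Abcg8*, part of the canalicular sterol exporter, was lower by -1.45 ± 0.23 (adjusted p = 0.000312) and was lowest in 1B, at -1.35 ± 0.22 (SD). In 1B 4 transporters were lower and 1 was higher (4.13% of all genes called), and in HFD 3 were lower and 1 higher (11.0% called). The interaction was called for 4 transporters (4.39% of all genes), named here after their values were seen. It was positive for *Slc10a2* (1.43 ± 0.30, adjusted p = 0.0155), *Abcg5* (1.29 ± 0.21, adjusted p = 0.00468), and *Abcc2* (0.89 ± 0.17, adjusted p = 0.0110). It was negative for *Slc10a1*, the main uptake carrier of conjugated bile acids (-1.52 ± 0.26, adjusted p = 0.00579).

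Of 17 other regulators, 5 were lower and 1 was higher in HFD+1B than in chow, where 16.3% of all genes were called and 7.41% were lower, with a median of -0.11. *Zfp36l1*, an RNA-binding protein that promotes decay of *Cyp7a1* mRNA, was higher by 1.60 ± 0.23 (adjusted p = 0.00015), with means of -0.84 ± 0.34 in chow mice, -0.74 ± 0.28 in 1B mice, -1.07 ± 0.19 in HFD mice, and 0.76 ± 0.56 in the 4 HFD+1B mice with a value (SD), and its interaction was 1.72 ± 0.33 (adjusted p = 0.0114). *Nr1i3*, the receptor CAR, was lower by -1.56 ± 0.16 (adjusted p = 5.33e-06) and *Ppara* by -1.09 ± 0.25 (adjusted p = 0.00645), and both were also lower in 1B, by -0.86 ± 0.17 (adjusted p = 0.00728) and -1.06 ± 0.27 (adjusted p = 0.0320). In 1B 4 regulators were lower and none higher (4.13% of all genes called), and in HFD 2 were lower and none higher (11.0% called). Of 8 clock output factors, which drive the daily rhythm of *Cyp7a1*, 2 were lower and 1 higher in HFD+1B than in chow (16.3% of all genes called). *Dbp* averaged 0.72 ± 0.97 in chow mice, -1.01 ± 0.33 in 1B mice, 0.41 ± 0.50 in HFD mice, and -1.40 ± 0.23 in HFD+1B (SD), a difference of -2.12 ± 0.33 (SE, adjusted p = 0.000231). *Tef* was lower by -0.92 ± 0.15 (adjusted p = 0.000292), and *Nfil3*, a repressor that binds the same sites as *Dbp*, was higher by 1.37 ± 0.20 (adjusted p = 0.000109). In 1B 3 of the 8 were called, all lower (4.13% of all genes called), and in HFD 1 was called, lower (11.0% called). The times of day of gavage and of tissue collection are not given per mouse in the labels, and their part in these differences was not tested.

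**Figure D5:**
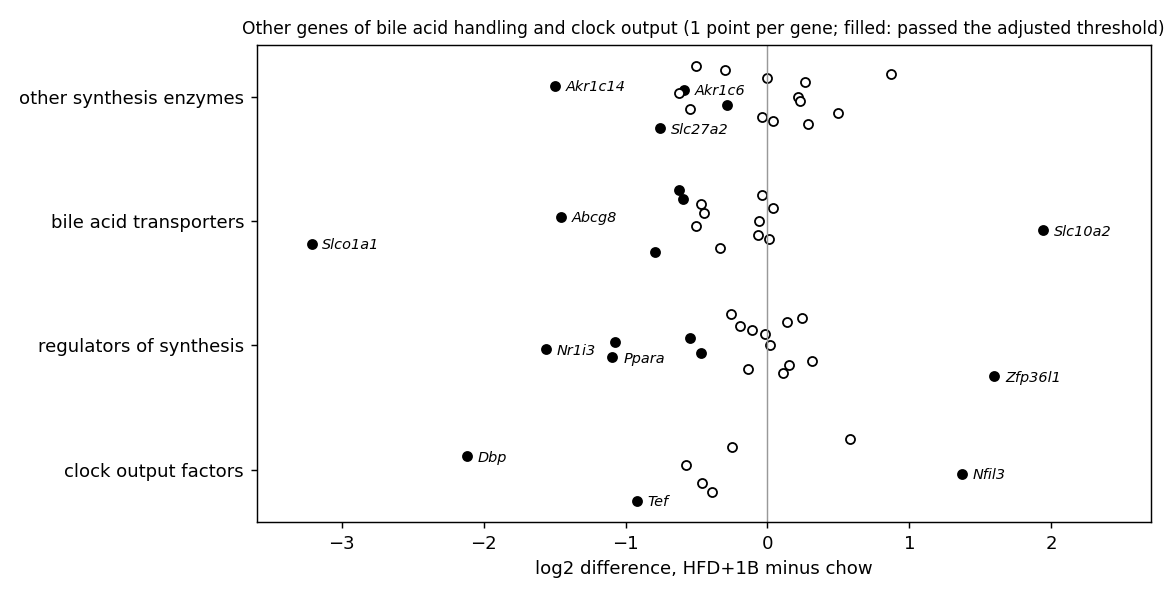
Log2 difference of HFD+1B minus chow for each gene of 4 lists, 1 point per gene, filled where the adjusted p was 0.05 or less, with the 3 genes of the largest called difference named in each list. Most points of each list are open, and Slco1a1 at -3.21 and Slc10a2 at 1.94 are the extremes.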

How the data were processed

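The authors hybridized liver cDNA (Cy5) with a common reference (Cy3) without a dye swap and scanned the arrays. The deposited scanner files give raw median signals as intensity, and the authors' deposited table holds, for each probe, a log2 ratio of liver to reference that equals the ratio of their processed signals to within 2.7e-06. All its value columns were assigned to a mouse (0 left over). From raw intensity, background was corrected with normexp (offset 50), spots marked as outliers were left out, and each array was normalized by loess. A probe was tested if its Cy5 signal exceeded background clearly on 4 or more of the 17 arrays and each group had a value. Group means over all arrays were fitted with limma 3.58.1 in R 4.3.3, with Benjamini-Hochberg adjustment over all 34664 probes. The number of arrays limits precision. In simulated data 200 of 200 probes changed by 2 on the log2 scale were recovered in HFD+1B minus chow, and 200 of 200 in the interaction. Among 34664 probes there were 9 and 14 false calls. The simulated noise was independent between arrays, with no part shared within a slide. Smaller changes were not simulated, so their recovery is not known.

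The genes and lists were chosen with earlier results of these data known. The text names all 10 genes, from each list of other synthesis enzymes, transporters, regulators, and clock output factors the 3 genes with the largest called difference in HFD+1B minus chow, and the 3 nearest profiles of each gene that differed at least 2-fold. Beyond that rule it names the 4 transporters with a called interaction, the called hepatocyte markers, and *Lcn2*. Marker lists of hepatocytes, stellate cells, macrophages, neutrophils, and cholangiocytes and 3 ribosomal RNA probes describe the samples.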

Additional observations from a re-analysis of the deposited data

Results flagged for a closer look

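In 51 groups of 4 or 5 values among the 14 probes, 2 held a mouse far from the rest of its group, where chance alone would give about 2.55. HFD mouse 3 was the lowest of its group in *Cyp8b1*, with a gap of 0.834 of the group's range to the next mouse. Chow mouse 2 was the highest of its group by the brightest *Baat* probe, with a gap of 0.927 of the range. The limma interaction, the ethanol difference on HFD minus that on chow, passed the threshold for both probes of *Cyp7a1* (-1.77 and -2.47), for *Nr1h4* (-0.87), and for 1 of the 3 probes of *Fgfr4* (0.88).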

How the results depend on the processing

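Of 10 genes, the number called was 2 in 1B minus chow, 2 in HFD minus chow, 6 in HFD+1B minus chow, 6 in HFD+1B minus HFD, 6 in HFD+1B minus 1B, 5 in HFD minus 1B, and 2 in the interaction. For 1B minus chow it was 1 with the authors' table, 1 with Cy5 alone, and 1 with the slide as a block. It was 0 by the Tukey test after analysis of variance, 4 with only the 2 groups fitted, and 1 by the 2-fold rule. The Tukey p-values were adjusted over all probes. The methods name that test for data of multiple groups and GeneSpring for the arrays. The Tukey test gave 0 for HFD minus chow, 3 for HFD+1B minus HFD, and 2 for HFD minus 1B. A t test from the same analysis of variance gave 1 for the interaction. Cy5 alone gave 1 for HFD minus chow, 4 for HFD+1B minus chow, 3 for HFD+1B minus HFD, 3 for HFD+1B minus 1B, 2 for HFD minus 1B, and 1 for the interaction. The 2-fold rule gave 1 for HFD minus chow, 3 for HFD+1B minus chow, 3 for HFD+1B minus HFD, 3 for HFD+1B minus 1B, and 2 for HFD minus 1B. The interaction called 4 genes with a normexp offset of 16, 4 with probes well above background on all 17 arrays, and 1 with median centring, which also moved the median of all genes to 0.14. The cause of these moves was not tested.

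Leaving out 1 mouse gave 1 to 3 genes in 1B minus chow, 1 to 2 in HFD minus chow, 6 to 8 in HFD+1B minus chow, 5 to 7 in HFD+1B minus HFD, 5 to 7 in HFD+1B minus 1B, 3 to 6 in HFD minus 1B, and 1 to 4 in the interaction. The count fell to 1 in 1B minus chow without chow mouse 3 or 4 or 1B mouse 1, 2, or 3, to 1 in HFD minus chow without chow mouse 2, 3, or 4 or HFD mouse 3 or 4, to 3 in HFD minus 1B without 1B mouse 3 or 4, and to 1 in the interaction without HFD mouse 4, and it rose to 4 in the interaction without HFD+1B mouse 3. *Fgfr4* by its RefSeq probe, an alternative chosen after seeing the data, turned direction, to -0.65 in HFD+1B minus chow, -0.53 in HFD+1B minus HFD, and -0.33 in HFD+1B minus 1B. Among single genes, 2091 values kept their side of the threshold, of which 59, none of them called, changed sign, 97 lost the call, and 29 gained it. *Cyp7a1* was called in all 32 alternatives of each comparison of HFD+1B with another group and in all 30 of the interaction.

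Same-numbered mice of different groups correlated in their deviations from the group means by -0.128 to 0.473, over 0.1 in 16 of 24 pairs. The highest correlations, 0.473 and 0.402, were of pairs on the same slide, and the lowest, -0.128 and -0.115, of pairs on different slides. The numbers were not taken to pair the samples, which these correlations do not settle, and the main fit had no term for the slide. With the replicate number as a block the counts were 2, 2, 6, 6, 6, 5, and 2 in the order given above.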
